A study of Mus musculus with 8 samples.

Results

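The interleukin-1 family and its receptors were followed in mouse BMDCs, dendritic cells that are grown in culture from bone marrow and present antigen to T cells. The 9 genes were taken by symbol from a deposited table of 55880 genes: the cytokines Il1a, Il1b and Il18, the soluble inhibitors Il1rn and Il18bp, and the receptor chains Il1r1, Il1r2, Il1rap and Il1rl1. Each symbol was found once. All 9 had enough counts to be tested among 14074 genes.

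Interleukin-1 alpha and beta bind the receptor chain encoded by Il1r1, which recruits the accessory protein encoded by Il1rap and signals through MyD88 and IRAK kinases to NF-kappaB. The receptor antagonist made from Il1rn occupies the same receptor without signalling, and the decoy receptor from Il1r2 binds the cytokines but has no signalling domain. Interleukin-1 beta and interleukin-18 are made as precursors that caspase-1 cuts in inflammasomes, so a transcript level does not give the level of active cytokine. Dendritic cells are among the main makers of these cytokines and use them to activate T cells and other leukocytes.

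The 4 LMF libraries came from BMDCs kept with ITRs over 24 h before a low-frequency magnetic field was applied. The labels do not expand ITR, and the series title names an intracellular magnetic torque-regulator. The 4 Control libraries came from untreated cells, per the treatment protocol. The groups were taken from the sample titles, since a separate treatment entry reads the same for all 8 libraries and does not tell them apart. The mice were wild-type C57BL/6 males of 6 weeks. All cultures, Control too, had GM-CSF (20 ng/mL) and interleukin-4 (10 ng/mL) over their 6 days of growth. RNA was taken 6 h after treatment. A group with magnetic rod-shaped micromotors named in the series design was not analysed here. Each LMF library had both ITRs and field and the Control cells were untreated, so the effects of ITRs and field cannot be told apart. Separate animals or cultures behind the replicates are not stated, and the spread behind each p-value is that between these libraries, which may be technical.

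The groups separated on the first principal component of log2 CPM, and on the second, with 10.7% of the variance, LMF replicate 4 stood at 27.2 while the other LMF libraries lay at -14.0 to -6.79. Without it 6 members were called, as with it. Summed gene counts were 16592672 to 18532878 in LMF libraries and 17309368 to 21585750 in Control libraries. The dendritic cell markers were present, with Cd74 at 3086 and Itgax at 227 CPM (counts scaled to library size) on average in LMF, against 3335 and 168 CPM in Control. Of the 10 markers of dendritic cells 9 were tested, 5 rose and 2 fell, with a summed level of 5748 to 6547 CPM in LMF and 5842 to 6187 CPM in Control. The remaining marker, Cd209a, was near 0. Of all tested genes 17.5% rose and 16.9% fell. Of the 10 macrophage markers 7 fell and none rose, and their summed level was 4592 to 4793 CPM in LMF and 6495 to 7228 CPM in Control. Apoe had the largest drop in CPM, averaging 1302 CPM in LMF and 3162 CPM in Control. Csf1r averaged 1793 CPM in LMF and 1819 CPM in Control, Adgre1 400 and 387, and Cd68 570 and 577. Csf1r, Adgre1 and Cd68 did not pass. Of the 10 neutrophil markers 6 rose and 1 fell, and the sum was 2627 to 2678 CPM in LMF and 2242 to 2332 CPM in Control. Both cell types can express several members, and the part of these shifts in the results was not tested. In these bulk libraries, fewer cells of a type and less RNA per cell cannot be told apart.

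Of the 9 members 5 rose in LMF (Il1b, Il1a, Il1rn, Il1rap and Il1r2), 1 fell (Il1r1) and 3 did not pass (Il18, Il18bp and Il1rl1). Among all tested genes the same test called 34.4%, 17.5% higher and 16.9% lower. Il1b, Il1a and Il1rn were called and at least 2-fold higher, as were 1.82% of all tested genes. The median log2 fold change of the 9 members was 0.40, against -0.00022 for all tested genes. Fold changes are LMF over Control with their SE (n = 4 each). They come from edgeR's quasi-likelihood test, with p adjusted by Benjamini-Hochberg over all tested genes and called under 0.05. The CPM of both groups did not overlap for 6 of the 9 members (Il1a, Il1b, Il1rn, Il18bp, Il1r1 and Il1r2), which was so for 31.8% of all tested genes.

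**Figure D1:**
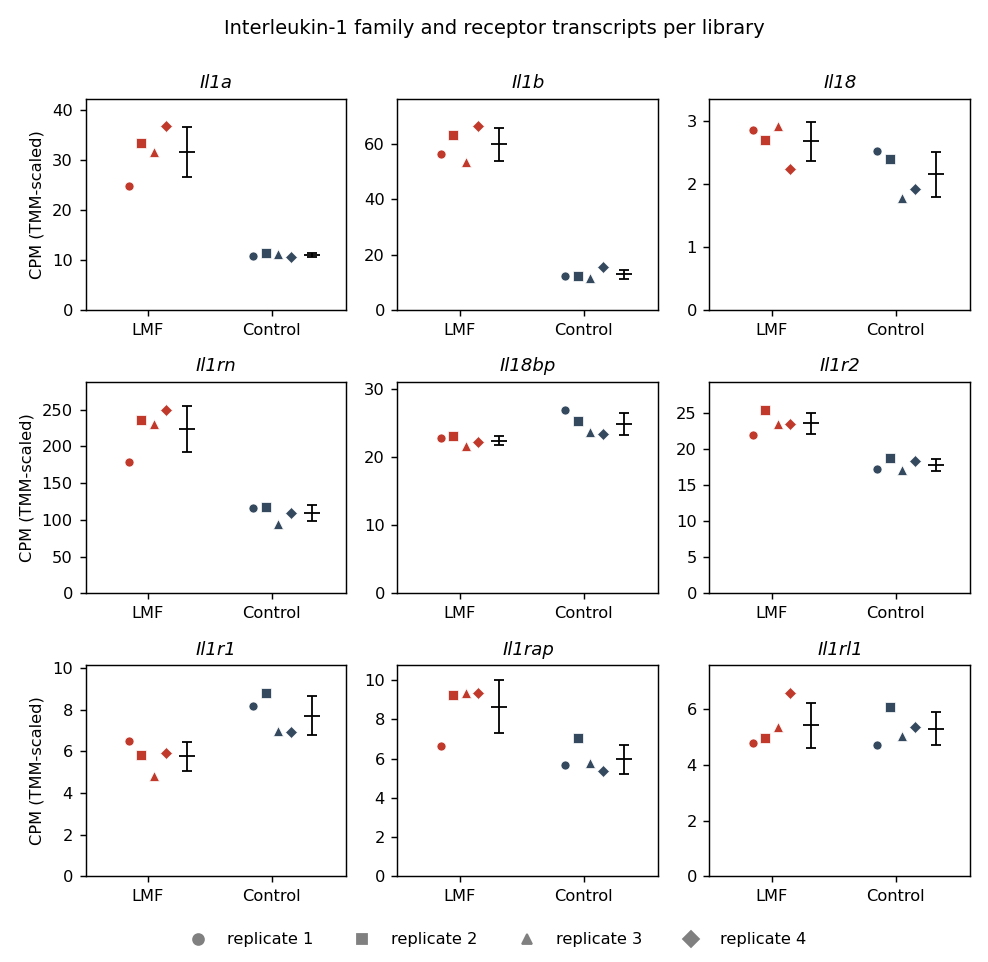
CPM (library-size-scaled counts, TMM factors, linear axis from 0) of each of the 9 members in the 4 LMF and 4 Control libraries, one marker shape per replicate number, with the group mean and SD as a bar to the right. Il1b stood at 53.5 to 66.3 CPM in LMF and 11.5 to 15.4 CPM in Control, while the values of Il18, Il1rap and Il1rl1 overlapped between groups.

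Il1a, Il1b and Il1rn, which had the largest increases of the 9, all lie on chromosome 2. The 250 bases before their first listed start sites are shown because the 3 genes rose together. The sequences are RefSeq's, on GRCm38.p6, and read 5′ to 3′ on the gene's strand. Capitals mark matches to C/EBP (TTNNGNAA) and AP-1 (TGANTCA) motifs, named for factors that act on inflammatory genes.
Il1b, chr2:129371140-129371389, minus strand: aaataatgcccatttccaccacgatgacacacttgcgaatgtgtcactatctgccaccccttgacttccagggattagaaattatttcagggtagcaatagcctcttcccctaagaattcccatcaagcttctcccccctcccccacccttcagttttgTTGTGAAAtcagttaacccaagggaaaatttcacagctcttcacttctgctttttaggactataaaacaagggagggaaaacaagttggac
Il1a, chr2:129309973-129310222, minus strand: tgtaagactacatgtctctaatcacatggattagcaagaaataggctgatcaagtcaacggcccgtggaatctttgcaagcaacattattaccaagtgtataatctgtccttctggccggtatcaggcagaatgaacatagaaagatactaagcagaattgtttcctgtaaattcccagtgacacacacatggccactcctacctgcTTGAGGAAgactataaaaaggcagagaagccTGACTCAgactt
Il1rn, chr2:24336610-24336859, plus strand: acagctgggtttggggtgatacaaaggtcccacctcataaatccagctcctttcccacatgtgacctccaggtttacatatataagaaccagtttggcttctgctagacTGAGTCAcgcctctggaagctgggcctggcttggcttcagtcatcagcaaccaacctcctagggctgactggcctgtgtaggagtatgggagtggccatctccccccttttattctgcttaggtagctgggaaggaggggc

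Il1b had 1 C/EBP match, beginning 91 bases before the start, Il1a 1 C/EBP and 1 AP-1 match, and this start of Il1rn 1 AP-1 match. The search covered 250 bases before to 50 after the start on both strands, and these matches do not overlap one another. In the same window of all 32851 listed promoters, 40.7% held the C/EBP motif and 7.81% the AP-1 motif. The kappaB motif, held by 8.46%, and the core of the cyclic AMP response element, TGACG, held by 20.8%, had no match at these 3 starts. All 9 members matched the promoter table, with 13 start sites, and the kappaB motif matched at 1 of them, a second start of Il1r1. Starts 2 and 3 of Il1rn, whose windows overlap, shared the same 3 C/EBP matches, some overlapping one another, and had no AP-1 match. C/EBP matches also lay at starts of Il18bp, Il1r1 and Il1rl1, which did not rise. Il1r2 and Il1rap, which rose, and Il18 had no match to any of the motifs searched. A match is only a description of the letters, and none of these libraries measured binding.

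Among the cytokines, both interleukin-1 genes rose several-fold and Il18 stayed at a low level. Il1b (ENSMUSG00000027398) encodes interleukin-1 beta, the secreted form made on inflammatory stimulation. Its level was 56.5, 63.4, 53.5 and 66.3 CPM in LMF replicates 1 to 4, against 12.2, 12.3, 11.5 and 15.4 CPM in Control replicates 1 to 4. Every LMF library was above every Control library, and Control replicate 4 was the highest of its group. Its log2 fold change was 2.23 ± 0.08 (adjusted p = 5.88e-20, edgeR), a ratio of group means of 4.67. It was 2.17 to 2.31 with any 1 library left out.

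Il1a (ENSMUSG00000027399) encodes interleukin-1 alpha, which is active without inflammasome cleavage. It stood at 24.9, 33.5, 31.6 and 36.7 CPM in LMF replicates 1 to 4, against 10.8, 11.4, 11.1 and 10.5 CPM in Control replicates 1 to 4. The groups did not overlap, the Control libraries lay close together, and LMF replicate 1 was the lowest of its group. Il1a rose by 1.53 ± 0.10 on the log2 scale (adjusted p = 1.02e-14, edgeR), and by 1.62 without LMF replicate 1.

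Il18 (ENSMUSG00000039217) encodes interleukin-18, a cytokine that drives interferon-gamma production by T and NK cells. Its counts were 51, 48, 54 and 37 in LMF replicates 1 to 4, against 55, 45, 33 and 33 in Control replicates 1 to 4, or 2.23 to 2.91 CPM in LMF and 1.78 to 2.52 CPM in Control. The groups overlapped. The log2 fold change of 0.31 ± 0.22 did not pass (adjusted p = 0.312, edgeR), and its 95% interval of -0.15 to 0.77 leaves room for an increase or a small decrease at this depth.

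The libraries' strand handling is not stated, and some members share bases with other counted genes. Il1bos, an antisense gene, overlaps 1243 bases of the Il1b locus and had 15, 17, 3 and 2 counts in LMF replicates 1 to 4, against 4, 2, 0 and 0 in Control replicates 1 to 4. This compares with 991 to 1124 counts of Il1b in LMF and 213 to 266 in Control. Gm14023, antisense to Il1a, had 11 to 19 counts in LMF and 11 to 14 in Control. Bco2, on the strand opposite Il18, shares 355 bases with it and had 7 to 21 counts in LMF and 7 to 17 in Control. Il18 itself had 37 to 54 counts in LMF and 33 to 55 in Control. Tex12 shares 4507 bases with Il18 and had 0 counts in every library. The part of Bco2 reads in the Il18 counts was not tested. Coordinates in the table place Il1b on chromosome 2 from 129206490 to 129213059, Il1a from 129141530 to 129151892, and Il1rn from 24226865 to 24241506. Il18 lies on chromosome 9 from 50466127 to 50493140, Il18bp on chromosome 7 from 101664092 to 101667897, and Il1rap on chromosome 16 from 26400454 to 26548867. On chromosome 1 the receptor genes Il1r2 (40113239 to 40164391), Il1r1 (40264240 to 40356417) and Il1rl1 (40468730 to 40504575) follow one another. These are the table's own numbers, and none of the 9 members has the start and end of RefSeq's GRCm38.p6 gene. There Il1a starts at 129299609 and Il1b at 129364569. The promoter positions above are thus not on the same coordinates as the gene positions given here.

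The gene for the interleukin-1 receptor antagonist rose with the cytokines, and the gene for the interleukin-18 binding protein did not pass. Il1rn (ENSMUSG00000026981) had the highest counts of the 9 members, with 179, 237, 231 and 250.1 CPM in LMF replicates 1 to 4, against 116, 118, 94.6 and 109 CPM in Control replicates 1 to 4. The groups did not overlap. LMF replicate 1 was again the lowest LMF library and Control replicate 3 the lowest Control library. Il1rn rose by 1.03 ± 0.13 on the log2 scale (adjusted p = 8.10e-04, edgeR), and by 1.12 without LMF replicate 1. Il1rn did not pass the test against a 1.5-fold change (adjusted p = 0.0555, edgeR).

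Il18bp (ENSMUSG00000070427) encodes a secreted protein that neutralises interleukin-18. It was at 22.8, 23.1, 21.6 and 22.2 CPM in LMF replicates 1 to 4, against 27.0, 25.4, 23.6 and 23.4 CPM in Control replicates 1 to 4. All LMF values lay under all Control values by a narrow margin. The log2 fold change of -0.15 ± 0.08 did not pass (adjusted p = 0.140, edgeR), with a 95% interval of -0.31 to 0.01. Il18bp shares 80 bases with Numa1 on the opposite strand, a gene with 3569 to 3997 counts in LMF and 4044 to 5259 in Control (log2 fold change -0.13 ± 0.04, adjusted p = 0.00551, edgeR). The part of Numa1 reads in the Il18bp counts was not tested.

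**Figure D2:**
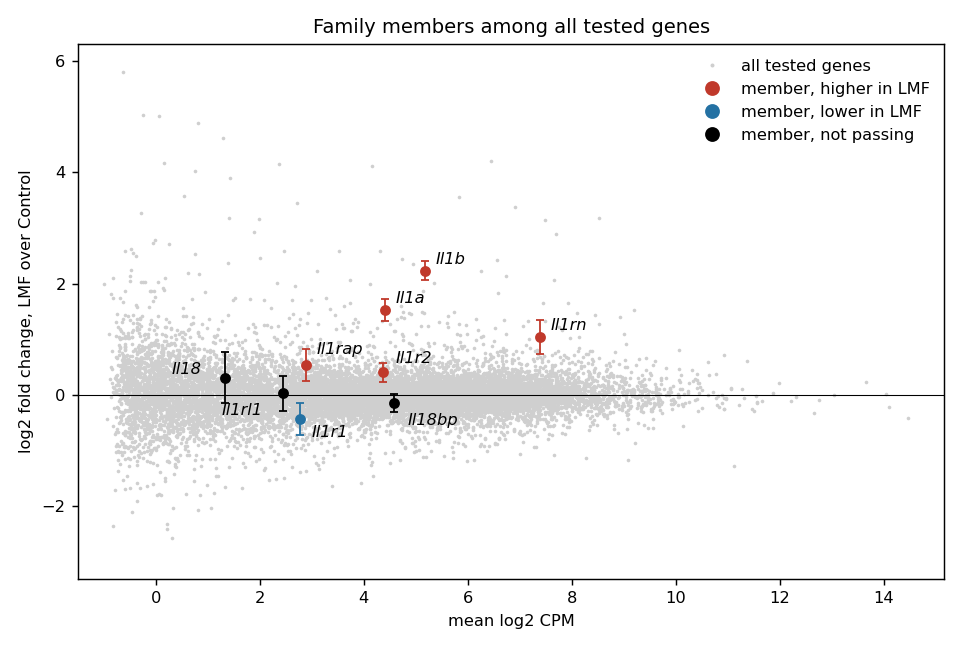
Log2 fold change of LMF over Control against mean log2 CPM for the 14074 tested genes (grey points), with the 9 members as large points and 95% intervals as bars. Red members passed as higher in LMF, the blue member, Il1r1, passed as lower, and the 3 black members did not pass. Il1b, Il1a and Il1rn stand above the bulk of genes, and the other 6 members lie within it.

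Of the 4 receptor genes Il1rap and Il1r2 rose, Il1r1 fell and Il1rl1 did not pass. Il1r1 (ENSMUSG00000026072), the signalling receptor chain, was at 6.51, 5.81, 4.80 and 5.91 CPM in LMF replicates 1 to 4, against 8.16, 8.80, 6.98 and 6.92 CPM in Control replicates 1 to 4. All LMF libraries lay below all Control libraries, with 89 to 116 counts in LMF and 119 to 178 in Control. The log2 fold change was -0.43 ± 0.14 (adjusted p = 0.0182, edgeR). The call was lost without LMF replicate 3 (adjusted p = 0.0727, edgeR), without Control replicate 1 (0.0537) and without Control replicate 2 (0.0805), with log2 fold changes of -0.35 to -0.49 over all libraries left out in turn.

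Il1rap (ENSMUSG00000022514) encodes the accessory chain that Il1r1 and Il1rl1 products both need for signalling. Its level was 6.62, 9.25, 9.34 and 9.35 CPM in LMF replicates 1 to 4, against 5.69, 7.04, 5.79 and 5.35 CPM in Control replicates 1 to 4. LMF replicate 1 lay below Control replicate 2, and the other LMF libraries lay above all Control libraries. Il1rap rose by 0.53 ± 0.14 on the log2 scale (adjusted p = 0.00321, edgeR), and by 0.64 without LMF replicate 1.

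Il1r2 (ENSMUSG00000026073), the decoy receptor, was at 21.9, 25.4, 23.4 and 23.5 CPM in LMF replicates 1 to 4, against 17.2, 18.8, 17.0 and 18.3 CPM in Control replicates 1 to 4. The groups did not overlap. The log2 fold change was 0.40 ± 0.08 (adjusted p = 1.91e-04, edgeR), a ratio of means of 1.32.

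Il1rl1 (ENSMUSG00000026069) encodes ST2, the receptor for interleukin-33, which is prominent on mast cells and basophils. It was at 4.77, 4.96, 5.34 and 6.57 CPM in LMF replicates 1 to 4, against 4.72, 6.08, 5.03 and 5.35 CPM in Control replicates 1 to 4. The groups overlapped throughout, the log2 fold change was 0.03 ± 0.16 (adjusted p = 0.906, edgeR), and the 95% interval ran from -0.29 to 0.35. The summed level of the 10 mast cell and basophil markers was 146 to 160 CPM in LMF and 120 to 137 CPM in Control. Of the 7 tested 3 rose and none fell, Mcpt4 was at 0 in every library, and Cma1 and Tpsb2 were under 1 CPM. Their part in the Il1rl1 level was not tested.

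LMF replicate 1 was the lowest LMF library for Il1a, Il1rn, Il1r2, Il1rap and Il1rl1. Its deviation from the LMF mean on the log2 CPM scale was -0.33 for Il1a, -0.31 for Il1rn and -0.36 for Il1rap. For Il1b the deviation was -0.08, and for Il1r1, where it was the highest LMF library, 0.18.

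On the authors' FPKM, which divides counts by a gene length, Il1rn led the members in both groups and Il1b moved up to the second rank in LMF. Il1rn averaged 40.3 ± 5.54 FPKM in LMF and 19.8 ± 1.95 FPKM in Control (SD, n = 4 each). In LMF it was followed by Il1b at 31.3 ± 3.01, Il1a at 16.0 ± 2.49, Il1r2 at 12.3 ± 0.664 and Il18bp at 7.38 ± 0.178 FPKM. The ranges of Il1rn and Il1b overlapped in LMF, as did those of Il1a and Il1r2.

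In Control the order after Il1rn was Il1r2 at 9.35 ± 0.404, Il18bp at 8.22 ± 0.599, Il1b at 6.73 ± 0.863 and Il1a at 5.57 ± 0.204 FPKM. Neighbours overlapped from Il1r2 to Il18bp and from Il18bp to Il1b. The remaining 4 members were lower in both groups. Il18 averaged 2.59 FPKM in LMF and 2.10 FPKM in Control. Il1r1 averaged 0.901 FPKM in LMF and 1.21 FPKM in Control, and Il1rl1 0.782 FPKM in LMF and 0.769 FPKM in Control. Il1rap was the lowest, at 0.757 FPKM in LMF and 0.526 FPKM in Control. In LMF the ranges of Il1r1 and Il1rl1, and of Il1rl1 and Il1rap, overlapped.

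The balance of cytokine to inhibitor transcripts was higher in LMF, as a ratio of FPKM within each library, for which no test was made. Il1b stood at 0.916, 0.777, 0.673 and 0.769 of Il1rn in LMF replicates 1 to 4, against 0.305, 0.302, 0.353 and 0.408 in Control replicates 1 to 4. Il1a averaged 0.396 ± 0.0119 of Il1rn in LMF and 0.283 ± 0.0315 in Control (SD, n = 4 each). With the lengths in the authors' FPKM, Il1rn was above both cytokine transcripts in every library. With the listed lengths Il1b to Il1rn was 0.832 to 1.13 in LMF and 0.373 to 0.504 in Control, so Il1b was then above Il1rn in at least 1 LMF library. Il18 averaged 0.351 ± 0.0426 of Il18bp in LMF and 0.253 ± 0.0271 in Control, where neither gene alone passed the test.

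The decoy to signalling receptor ratio, Il1r2 to Il1r1, was 11.2, 14.6, 16.3 and 13.2 in LMF replicates 1 to 4, against 7.03, 7.11, 8.14 and 8.80 in Control replicates 1 to 4. The ratio of Il1rap to Il1r1 averaged 0.859 ± 0.215 in LMF and 0.434 ± 0.0319 in Control (SD, n = 4 each), with 0.570 in LMF replicate 1. The groups did not overlap for any of these 5 ratios, but how often this holds for ratios of other genes was not computed. All but Il18 to Il18bp hold a member that was called by itself. The size of the ratios depends on the gene lengths, which for Il1rn were 5535 bases in the authors' FPKM and 8699 bases as listed. The ratio of LMF to Control does not depend on these lengths: it was 2.29 for Il1b to Il1rn and 1.78 for Il1r2 to Il1r1.

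**Figure D3:**
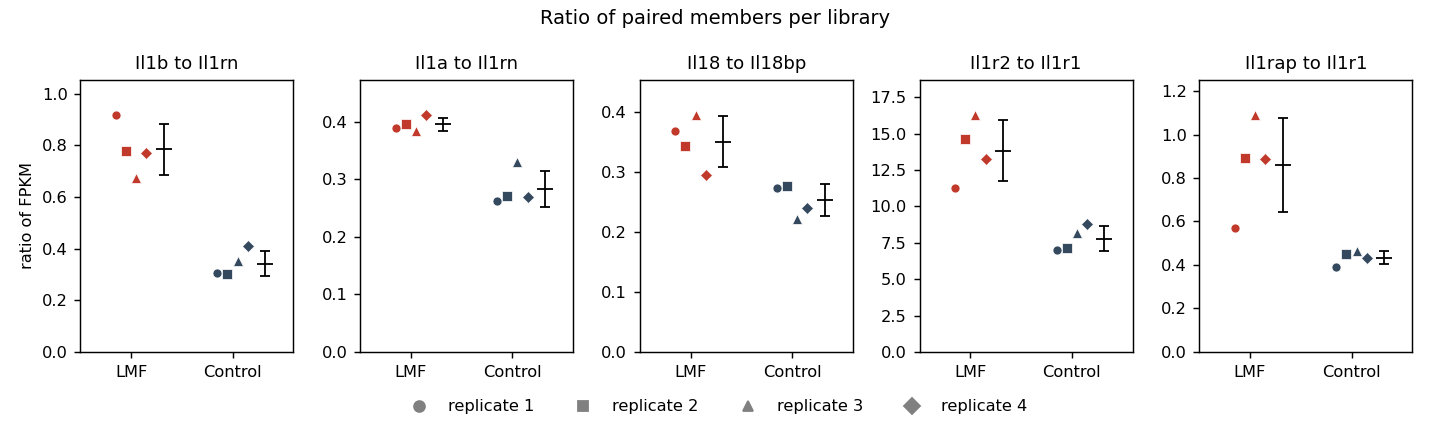
Ratio of the authors' FPKM of 2 members within each library (linear axes from 0), for 5 pairs, with LMF left of Control, one marker shape per replicate number and the group mean with SD as a bar. All 4 LMF libraries lie above all 4 Control libraries in each pair, as for Il1b to Il1rn at 0.673 to 0.916 in LMF and 0.302 to 0.408 in Control.

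In the rest of the interleukin-1 family, Il1f9, the gene for interleukin-36 gamma (Il36g in RefSeq), rose. It stood at 69.6, 77.4, 68.0 and 72.3 CPM in LMF replicates 1 to 4, against 27.8, 30.5, 25.1 and 24.2 CPM in Control replicates 1 to 4. The groups did not overlap and the log2 fold change was 1.41 ± 0.07 (adjusted p = 1.41e-18, edgeR). Per length its level was 43.4 FPKM in LMF and 16.4 FPKM in Control on average.

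Il1rl2, the interleukin-36 receptor, averaged 49.9 ± 5.60 CPM in LMF and 57.3 ± 4.22 CPM in Control (SD, n = 4 each), and fell by 0.20 ± 0.07 on the log2 scale (adjusted p = 0.0252, edgeR). Without LMF replicate 1 its log2 fold change was -0.13 (adjusted p = 0.0980, edgeR), and without Control replicate 2 it was -0.15 (0.109), so the call was lost in both. The groups overlapped. The interleukin-18 receptor chains did not pass, with Il18r1 at 0.23 ± 0.10 (adjusted p = 0.0708, edgeR) and Il18rap at -0.09 ± 0.07 (0.363). Il18r1 passed without LMF replicate 2 (log2 fold change 0.32, adjusted p = 0.0126, edgeR). Sigirr, an inhibitory receptor of the family, was at -0.11 ± 0.08 (adjusted p = 0.321, edgeR). Of the 12 genes of this list 5 were tested, 1 rose and 1 fell, against 17.5% and 16.9% of all tested genes. Il33 had 1 to 4 counts in LMF and 1 to 3 in Control. Il1f6 had 0 to 2 in LMF and 0 to 1 in Control, and Il1f8 had 0 in LMF and 0 to 1 in Control. Il1f5, Il1f10, Il1rapl1 and Il1rapl2 were listed at 0 in all 8 libraries, where a count of 0 allows up to 3 counts in a library.

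Of the 21 genes of interleukin-1 receptor signalling, all tested, 8 rose and 2 fell, against 17.5% and 16.9% of all tested genes. The list median was a log2 fold change of 0.14. Irak3, an IRAK family member that restrains signalling, averaged 89.3 ± 1.21 CPM in LMF and 49.8 ± 2.00 CPM in Control (SD, n = 4 each) and rose by 0.84 ± 0.05 (adjusted p = 8.21e-16, edgeR). It shares 541 bases with Tmbim4 on the opposite strand. Traf6, the ubiquitin ligase downstream of the IRAK kinases, rose by 0.29 ± 0.05. Peli2, a ubiquitin ligase that acts on IRAK proteins, was at -0.55 ± 0.05. The adaptor Myd88, named after its value was seen, rose by 0.16 ± 0.05. It shares 1736 bases with Acaa1a on the opposite strand, which had 33624 counts over the 8 libraries, and the part of Acaa1a reads in the Myd88 counts was not tested.

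Of the 19 genes that process or release interleukin-1, all tested, 6 rose, 3 fell and 10 did not pass, with a list median of 0.0063. Among all tested genes 17.5% rose and 16.9% fell. Mefv, the gene of the inflammasome sensor pyrin, averaged 68.7 ± 0.804 CPM in LMF and 29.7 ± 2.11 CPM in Control (SD, n = 4 each) and rose by 1.21 ± 0.06 (adjusted p = 3.48e-18, edgeR). Casp4, the mouse gene of the caspase that senses intracellular lipopolysaccharide, rose by 1.06 ± 0.07. P2rx7, the ATP-gated channel that triggers the NLRP3 inflammasome, was at -0.53 ± 0.05. The following 4 genes were named after their values were seen. The sensor gene Nlrp3 rose by 0.43 ± 0.04, and Pycard, the adaptor of most inflammasomes, was at -0.44 ± 0.07 and passed. Casp1, which cuts pro-interleukin-1 beta, was at 0.11 ± 0.05 (adjusted p = 0.0759, edgeR), and Gsdmd, the pore-forming gasdermin, at -0.05 ± 0.04 (adjusted p = 0.364, edgeR).

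Of 22 NF-kappaB targets that interleukin-1 receptors can induce 20 were tested and all 20 rose, against 17.5% of all tested genes. Their median log2 fold change was 0.84. Several of these were already known to rise in these libraries when the list was drawn up, so the count is not independent evidence of its direction. Saa3, an acute-phase protein, averaged 159 ± 4.18 CPM in LMF and 29.7 ± 2.24 CPM in Control (SD, n = 4 each) and rose by 2.42 ± 0.05 (adjusted p = 1.32e-28, edgeR). Sod2, mitochondrial superoxide dismutase, rose by 1.65 ± 0.04 and Tnfaip3, the feedback inhibitor A20, by 1.23 ± 0.04. The remaining 2 were under the filter, Csf3 with 3 to 10 counts in LMF and 0 to 3 in Control, and Csf2 with 0 to 2 in LMF and 0 to 5 in Control. Whether the products of Il1a or Il1b acted on the cells was not measured.

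Of 16 transcription and mRNA decay regulators of Il1b, all tested, 6 rose and 2 fell, against 17.5% and 16.9% of all tested genes. The list median was 0.084. Jun, an AP-1 subunit, averaged 106 ± 9.72 CPM in LMF and 50.8 ± 3.34 CPM in Control (SD, n = 4 each) and rose by 1.06 ± 0.06 (adjusted p = 1.73e-15, edgeR). It shares 689 bases with Junos on the opposite strand. Hif1a, a transcription factor that acts on Il1b in macrophages, rose by 0.67 ± 0.04. Zfp36, tristetraprolin, which destabilises cytokine mRNAs, rose by 0.39 ± 0.04. The 2 genes of the list that fell, named after their values were seen, are of the same family of RNA-binding proteins: Zfp36l2 was at -0.35 ± 0.04 (adjusted p = 1.88e-08, edgeR) and Zfp36l1 at -0.14 ± 0.04 (0.00310).

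**Figure D4:**
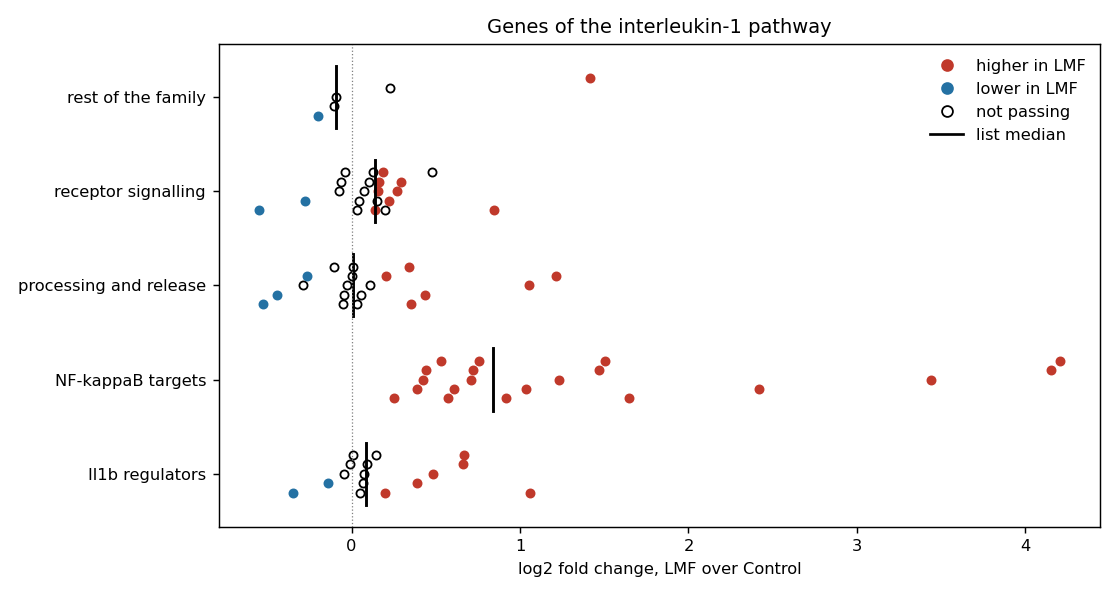
Log2 fold change of LMF over Control for each tested gene of the 5 pathway lists, from the rest of the family at the top to the regulators of Il1b at the bottom, with red for genes that passed as higher in LMF, blue for lower, open circles for genes that did not pass and a vertical bar for the list median. All 20 tested NF-kappaB targets are red, and several were already known to rise in these libraries when that list was drawn up. The other 4 lists hold genes of each kind. Among all tested genes 17.5% rose and 16.9% fell.

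The 5 genes whose level followed Il1b most closely over the 8 libraries were Psmd10, Dcbld2, Rasgef1b, Cxcl10 and Fbxo30, out of genes averaging 2 or more in log2 CPM. Pearson's r on log2 CPM was 0.999 for Psmd10, 0.998 for Dcbld2, 0.997 for Rasgef1b, 0.997 for Cxcl10 and 0.997 for Fbxo30. The libraries form 2 separate groups and share their depth, so most of this likeness is the gap between LMF and Control. With the group means removed, r over the same 8 libraries was 0.947, 0.845, 0.840, 0.884 and 0.805 in that order. The genes were picked for a high r over these same libraries, so these values are high in part by that choice and are a description only. Psmd10, a proteasome assembly chaperone, was at a log2 fold change of 0.50 ± 0.06 and Cxcl10, an interferon-inducible chemokine, at 4.11 ± 0.16.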

How the data were processed

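Polyadenylated RNA was extracted with Trizol and sequenced, per the labels' protocols. Per the submitters' processing notes the build was mm10 and the tools included HISAT2 2.0.5, HTSeq, Trimmomatic and DESeq2, whose roles are not given. The deposited table gives raw counts. Per the file headers it also holds the authors' FPKM. From the values, the FPKM divide by 1 length per gene and by the library's summed counts. Only 1456 of 52083 Ensembl IDs matched to GENCODE M21 (mm10) have its start and end, so the table's coordinates do not follow that mm10 annotation. Which build they follow is not given in the sources used here.

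Counts were tested with edgeR 4.0.16 (R 4.3.3): filterByExpr, TMM, robust quasi-likelihood F test, group as the only term, at an adjusted p of 0.05. SE was obtained by dividing the size of each log2 fold change by the root of its F. CPM are TMM-scaled, and log2 CPM use a prior count of 2. On simulated counts for LMF against Control, with 13868 genes, 50 genes were changed at each of 4 sizes: 1.25-fold (54% recovered), 1.5-fold (72%), 2-fold (76%) and 4-fold (98%), and 10 of 13673 unchanged genes were called. In the data far more genes were called, 4845 of 14074. The adjustment of p is less strict there, so the recovered shares do not carry over to the data. Library pairs differed by a chi-square per degree of freedom of 3.50 to 7.80 within groups, so none looked like a copy.

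The members and lists were chosen with earlier results of these data known. Named genes are the 9 members, the rest of the family, the 3 called genes with the smallest adjusted p of each other list, and the 5 most like Il1b. Symbols of 4 list genes were matched through RefSeq synonyms. Alternatives were other scalings, DESeq2 1.42.0, limma-voom and limma-trend (limma 3.58.1), other filters, a replicate block, a 1.5-fold threshold and leaving out each library. Intervals cover the spread between libraries.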

Additional observations from a re-analysis of the deposited data

Results flagged for a closer look

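Il1rap in LMF replicate 1 was at 6.621 CPM, while the other 3 LMF libraries lay at 9.246 to 9.347 CPM. By Dixon's test at the 95% level this library lay apart from the rest of its group. It was the 1 such case in 62 groups of 4 libraries checked over the named genes, where chance gives about 3.1.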

How the results depend on the processing

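Over 19 other settings Il1b and Il1a kept their calls. Of the members 6 were called under each scaling, filter and count test and with the replicate block (4774 genes called in all, against 4845). Limma-trend on log2(FPKM + 0.1) called 4 members and 4288 genes in all, and the test against a 1.5-fold change called 2 members. That last test called 363 of 14074 tested genes. It called 1 of 5 tested genes in the rest of the family, 1 of 21 in signalling and 2 of 19 in processing. In the other lists it called 11 of 20 tested NF-kappaB targets and 1 of 16 regulators. With 1 library left out, 5 to 6 members and 1 to 3 of the rest of the family were called, among 4307 to 5047 genes in all. On FPKM (both pseudocounts) 1 of the rest of the family was called. Il1rap lost its call on log2(FPKM + 0.1) (adjusted p = 0.0551), as did Il1r1 (0.0547). The cause was not tested. The uncalled Il1rl1 ran from -0.077 to 0.103 with 1 library left out, changing sign without LMF replicate 4 (-0.077) and Control replicate 1 (-0.026). Per listed length, mean ratios were 0.969 in LMF and 0.423 in Control for Il1b to Il1rn, 0.622 and 0.445 for Il1a to Il1rn, and 0.228 and 0.165 for Il18 to Il18bp, by construction. Same-numbered libraries showed no shared deviation from their group means, with correlations of -0.013 to 0.028. With no known pairs to compare against, these values do not settle whether the samples were paired. Il18 had the fewest counts of the 9 members, at 33 to 55 in a library.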
